A study of Solanum tuberosum with 100 samples.

Results

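Potato genotypes that bruised heavily in both of their biological replicates were compared with genotypes that bruised little in both. Bruising had been scored from 0 to 5 on each of 3 tubers per replicate, and a genotype was taken as consistently high when the sum of the 3 scores was 6 or more in both replicates, and as consistently low when it was 3 or less in both. These limits were met by 42 of the 100 genotypes sequenced, of which 18 were consistently high and 24 consistently low. The other samples were 15 labelled high bruising and 16 labelled low bruising whose second replicate fell outside the limits, 1 with a single scored replicate, and 26 that the labels leave out of the high and low groups.

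All genotypes were progeny of *Solanum tuberosum* crosses that share the parent Crop52. A lead weight was dropped on the tubers, and polyA RNA was taken from tuber tissue 2 h later. Each library pooled tissue from the 3 tubers of a single replicate, so every genotype contributed 1 library and the replicate that was not sequenced contributed a score only. The consistently high group and the consistently low group therefore shared the treatment, the time point and 1 parent, and differed in bruising score and in the second parent of many genotypes. No unbruised tuber is part of the comparison, so a difference that existed before the impact and one that followed it cannot be told apart. Samples are separate genotypes, and the spread between them holds genetic, plant and library differences together.

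In the consistently high genotypes the sum ran from 6 to 11 (median 8) in the sequenced replicate and from 6 to 13 (median 8.5) in the other. In the consistently low genotypes it ran from 0 to 3 (median 2) in the sequenced replicate and from 0 to 3 (median 1) in the other. Just inside the limits lay 6 high genotypes with a lower sum of 6 and 11 low genotypes with a higher sum of 3. Just outside, the samples labelled high reached at most 5 in the replicate not sequenced, and those labelled low had at least 4 there. The sequenced library came from replicate 1 for 14 of the high and 17 of the low genotypes.

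Family membership differed between the 2 groups, which came from 11 crosses, each a half-sib family. Crosses 2121 and 2165 supplied 10 of the 18 consistently high genotypes and 1 of the 24 consistently low genotypes. Another 13 consistently low genotypes came from 4 crosses (2158, 2170, 2172 and 2183) that held no consistently high genotype, and cross 2121 held no consistently low one. In these 5 crosses, bruising group and family cannot be told apart. The remaining 6 crosses held both kinds, 14 high and 11 low genotypes in all, with 6 high and 1 low in cross 2165 alone.

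**Figure D1:**
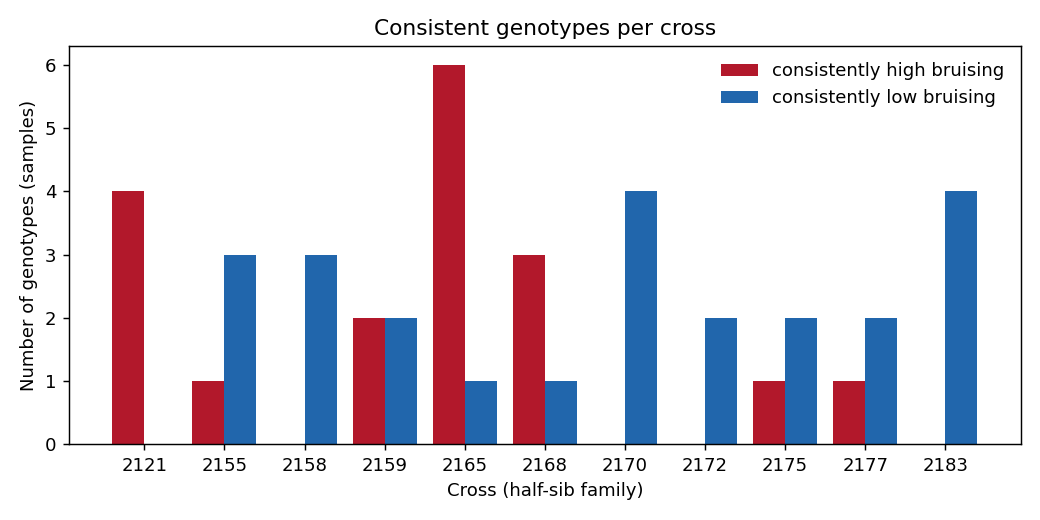
Number of consistently high (red) and consistently low (blue) bruising genotypes in each of the 11 crosses. Cross 2165 holds 6 high and 1 low genotype, cross 2121 holds 4 high and none low, and crosses 2170 and 2183 hold 4 low each and none high.

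Blackspot bruising is a wound reaction of the tuber: impact breaks membranes inside cells, polyphenol oxidases of the plastid meet phenols of the vacuole, and the quinones formed polymerise into dark melanin. How dark a bruise becomes is known to depend on the phenolic substrates, on the enzymes and on how easily cells break. Wounded tuber tissue also turns on signalling by calcium, kinases and hormones, protease inhibitors and the phenylpropanoid pathway, which makes phenols, lignin and anthocyanins.

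Total counts per library lay between 6832655 and 30655033 (median 18518195.5) in the consistently high group and between 8065444 and 37849041 (median 19636164.5) in the consistently low group. The mean log2 total was 23.98 against 24.20, a difference of -0.22, within the sample-to-sample spread (p = 0.285, permutation test, two-sided). All 5 patatin genes measured, which encode the storage protein of the tuber, had reads in all 42 libraries and took 0.0961% to 0.67% of the counts in high and 0.111% to 1.28% in low genotypes. No pair of libraries looked like 1 library deposited under 2 names, since the highest correlation of log2 levels between any pair of the 100 was 0.975.

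Between consistently high and consistently low genotypes, 299 genes of 18744 tested (1.6%) passed edgeR's quasi-likelihood test at a Benjamini-Hochberg adjusted p under 0.05, 162 of them (0.864%) higher and 137 (0.731%) lower in the high genotypes. Most changes were small: the median absolute log2 fold change of the 299 genes was 0.68, within a range of 0.21 to 3.27, and 70 genes exceeded 1. No gene separated the groups without overlap. For the median gene of the 299, the direction of its fold change held in 80.8% of the high and low pairs of samples, and in 91.7% at most. An unadjusted p under 0.05 was reached by 3657 genes. DESeq2 passed 928 genes of the 18380 it gave an adjusted p. The count moved with single samples and families: leaving out 1 genotype gave between 60 genes (without 2165_5) and 979 genes (without 2159_9), and leaving out all 7 samples of cross 2165 gave 0, with 2102 genes at an unadjusted p under 0.05. Without that cross all 299 genes kept their direction, 291 had an unadjusted p under 0.05, and the median ratio of their fold change to that in all samples was 0.828. The 12 high and 23 low samples of that fit had also served to choose the 299 genes. These values are therefore not independent evidence.

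Of the 57 genes that the study called between its high- and low-bruising samples, 49 were tested here, and 27 of them (55.1%, against 1.6% of all genes) passed, 18 higher and 9 lower in consistently high genotypes. That list was drawn by the study from 74 samples that include these 42, so its direction is not independent evidence. Its genes are used below because they carry names. The smallest absolute log2 fold change among the 27 was 0.24 and the largest 3.05. DESeq2 passed 26 of the 27, the exception being *UPA16* (adjusted p = 0.0899).

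Genes of transcription and RNA binding made up 6 of the tested genes, of which 3 rose, 1 fell and 2 did not pass. Phi-2 (PGSC0003DMG400025889, chromosome 1), named after a tobacco bZIP transcription factor that phosphate induces, ranged from 38.9 to 112 CPM with a median of 72 CPM in consistently high genotypes. In consistently low genotypes it ranged from 31.1 to 65.8 CPM with a median of 43.6 CPM. The ranges overlapped, yet 11 of the 18 high samples lay above every low sample. Its log2 fold change was 0.68 ± 0.11 (SE, adjusted p = 0.00341), the smallest among the genes with a name, and it stayed below 0.05 when any 1 sample was left out (at most 0.00745). Without cross 2165 the log2 fold change was 0.58 and the adjusted p 0.0746.

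An AP2/ERF domain transcription factor (PGSC0003DMG400020625, chromosome 4), of the family that includes the ethylene response factors, had 67.5 to 296 CPM (median 129.8) in high and 44.7 to 148 CPM (median 94.8) in low genotypes. Its 3 highest values all came from cross 2165, and the log2 fold change was 0.59 ± 0.14 (adjusted p = 0.0328). Homeodomain leucine-zipper 1 (PGSC0003DMG400021423, chromosome 2), a plant-specific transcription factor, had 2.04 to 16.8 CPM (median 7.11) in high and 1.86 to 9.05 CPM (median 3.05) in low genotypes. It was higher by 1.06 ± 0.24 on the log2 scale (adjusted p = 0.0226), and 1 low sample lay above the median of the high group. An RNA binding protein gene (PGSC0003DMG400027944, chromosome 9) fell by 0.36 on the log2 scale (SE 0.097, adjusted p = 0.0443), from a median of 70.5 CPM in low to 58.8 CPM in high genotypes.

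Membrane and transport proteins gave 7 passing genes of 10 tested, 4 higher and 3 lower. Of the transport genes that passed, the one with the largest fall encodes an OPT-type oligopeptide carrier (PGSC0003DMG400013297, chromosome 11) of a family that moves small peptides and metal complexes across membranes. It had 40.3 to 110 CPM (median 64.9) in high and 42.6 to 251 CPM (median 101) in low genotypes. In 10 low samples the level exceeded that of every high sample, and the lowest low sample was 2165_1, the single low genotype of cross 2165. The log2 fold change was -0.81 ± 0.16 (adjusted p = 0.0132).

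The mechanosensitive ion channel gene (PGSC0003DMG400009888, chromosome 4) belongs to a class of channels that open when the membrane is stretched. Its level ran from 11.5 to 31.3 CPM (median 21) in high and from 15 to 50.8 CPM (median 27.3) in low genotypes. The groups overlapped widely, with 9 low samples above the highest high sample, and the log2 fold change was -0.50 ± 0.12 (adjusted p = 0.035). An organic anion transporter gene (PGSC0003DMG402029307, chromosome 12) fell by 0.46 on the log2 scale (SE 0.10, adjusted p = 0.0226), with medians of 100.4 CPM in high and 142 CPM in low genotypes.

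Among the transport genes that rose, 2 peptide transporter genes were expressed at low levels. One (PGSC0003DMG400006606, chromosome 6) had a median of 1.87 CPM in high and 0.557 CPM in low genotypes, and a log2 fold change of 1.38 ± 0.32 (adjusted p = 0.0279). The other (PGSC0003DMG400022107, not placed on a chromosome) had medians of 1.51 and 0.694 CPM and a log2 fold change of 1.28 ± 0.33 (adjusted p = 0.0402). The highest sample of both genes was 2121_1, and 3 low samples lay above the median of the high group in each. Transmembrane protein 50a (PGSC0003DMG400027793, chromosome 11) rose by a smaller amount, 0.33 ± 0.079 on the log2 scale (adjusted p = 0.0292), from a median of 19.8 CPM in low to 24.5 CPM in high genotypes.

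*UPA16* (PGSC0003DMG400033693, chromosome 3), named after a pepper gene that a bacterial effector switches on and annotated as a sugar transporter, had the largest log2 fold change of the listed genes tested, 3.05 ± 0.78 (adjusted p = 0.0387), and 1.56 in DESeq2 (adjusted p = 0.0899). The fold came from few samples. The median was 0.676 CPM in high and 0.315 CPM in low genotypes, 2 high samples were at 0, and the values of 2165_9 (67.6 CPM), 2165_5 (57.1 CPM) and 2168_6 (15.6 CPM) stood above all low samples, whose highest was 11.2 CPM in 2183_4. Without 2165_9 the log2 fold change was 2.34 (adjusted p = 0.0978), and without cross 2165 it was 1.26 (adjusted p = 0.532).

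**Figure D2:**
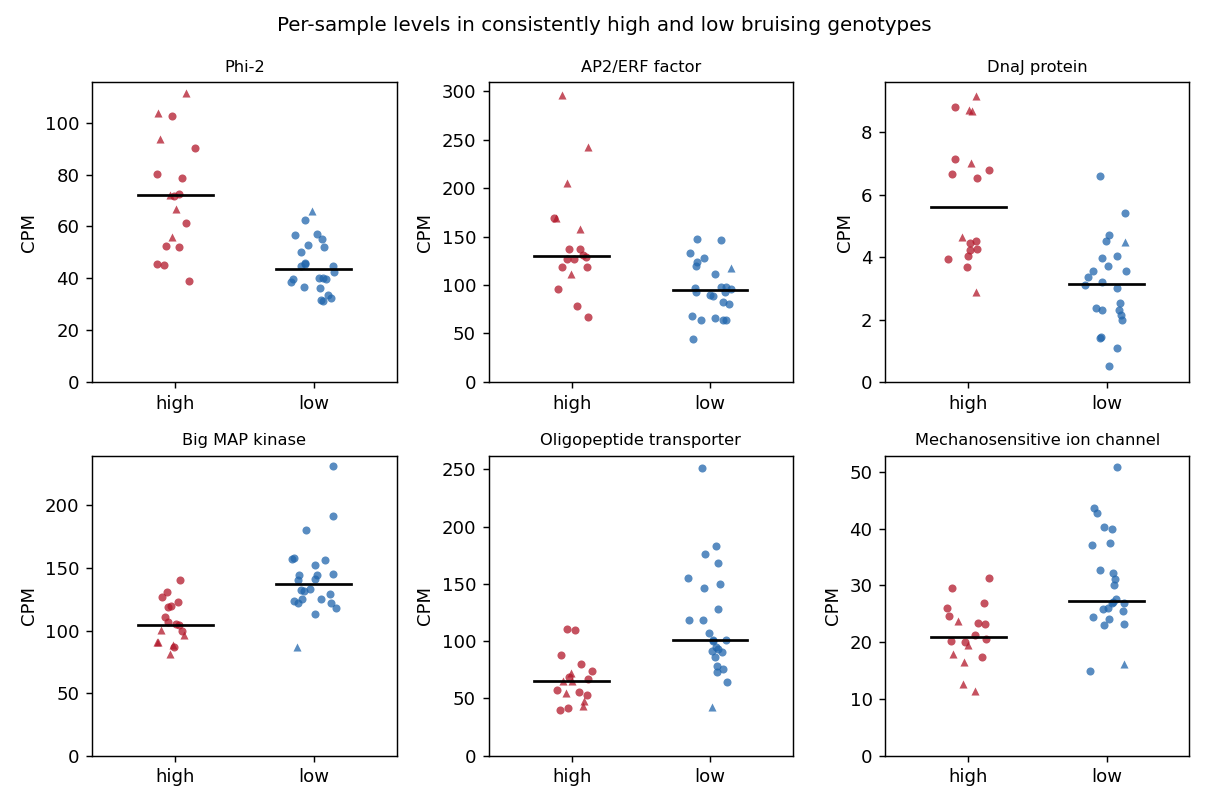
Level in CPM (counts scaled to a common TMM-adjusted library size) of 6 genes in each of the 18 consistently high (red) and 24 consistently low (blue) bruising samples, with triangles for cross 2165 and a bar at the group median. Phi-2, the AP2/ERF factor and the DnaJ protein are shifted upwards in the high group and the other genes downwards, and the groups overlap in every panel.

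Of 5 kinase genes tested, 1 rose, 1 fell and 3 did not pass, and of 2 disease resistance genes tested 1 fell and 1 did not pass. The leucine-rich repeat receptor kinase (PGSC0003DMG400031752, chromosome 2), a receptor type that senses signals at the cell surface, was higher, with 0.711 to 27.5 CPM (median 8.04) in high and 0.63 to 9.66 CPM (median 3.69) in low genotypes. Its log2 fold change was 1.22 ± 0.29 (adjusted p = 0.0329). The gene annotated as big MAP kinase (PGSC0003DMG400002452, chromosome 12), a kinase of a phosphorylation cascade, was lower, with 81.3 to 141 CPM (median 105) in high and 86.6 to 232 CPM (median 137) in low genotypes. In 11 low samples it exceeded every high sample, and the lowest value of the low group was again that of 2165_1. The log2 fold change was -0.41 ± 0.082 (adjusted p = 0.0139).

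The 3 kinase genes that did not pass all had lower fitted levels in high genotypes, among them the Rhg4-like receptor kinase (PGSC0003DMG400004667; log2 fold change -0.74, adjusted p = 0.0682). Avr9/Cf-9 rapidly elicited protein 140 (PGSC0003DMG400010173, chromosome 3), of a group of genes that tobacco cells induce within minutes of recognising a fungal peptide, fell by 0.55 on the log2 scale (SE 0.15, adjusted p = 0.0443), with medians of 25.6 CPM in high and 36.6 CPM in low genotypes. The CC-NBS type resistance gene (PGSC0003DMG400008596) narrowly missed the threshold (log2 fold change 0.62, adjusted p = 0.0553). The alpha subunit gene of a GTP-binding protein (PGSC0003DMG400033681, chromosome 3), which relays receptor signals, had the smallest passing change among listed genes, -0.24 ± 0.064 (adjusted p = 0.0443), on medians of 54.3 CPM in high and 65.7 CPM in low genotypes.

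Ubiquitin marks proteins for breakdown or other fates, and of the 3 genes of its pathway 2 rose. The ring finger protein gene (PGSC0003DMG400012137, chromosome 8), of a class that includes many ubiquitin ligases, had 1.39 to 10.0 CPM (median 4.06) in high and 0.696 to 5.23 CPM (median 1.79) in low genotypes, with a log2 fold change of 1.18 ± 0.27 (adjusted p = 0.0226). The NPH3 family gene (PGSC0003DMG400017655, chromosome 9), whose best known member in *Arabidopsis* links light receptors to a ubiquitin ligase, had medians of 16.5 and 8.36 CPM and a log2 fold change of 0.86 ± 0.23 (adjusted p = 0.0435). The ubiquitin carboxyl-terminal hydrolase gene (PGSC0003DMG400026229) had a log2 fold change of 0.57 and an adjusted p of 0.0796.

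Of 11 other listed genes tested, 4 rose, 2 fell and 5 did not pass. They include a pair of genes tied to the HSP70 chaperone that moved in opposite directions. The DnaJ protein gene (PGSC0003DMG400028488, chromosome 6), a co-chaperone type, had 2.87 to 9.17 CPM (median 5.61) in high and 0.506 to 6.59 CPM (median 3.15) in low genotypes and rose by 0.91 ± 0.20 on the log2 scale (adjusted p = 0.0226). The HSP70-interacting protein gene (PGSC0003DMG400012485, chromosome 8) had 2.08 to 14.8 CPM (median 6.6) in high and 2.17 to 22.9 CPM (median 12) in low genotypes, with a log2 fold change of -0.77 ± 0.20 (adjusted p = 0.0443).

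The other 3 of these genes that rose encode an enzyme and nucleotide or DNA binding proteins. The N-acetylneuraminate-9-phosphatase gene (PGSC0003DMG400029856, chromosome 10), which carries the name of an animal enzyme of sialic acid synthesis, had 18 to 85.7 CPM (median 53.3) in high and 13.2 to 64.3 CPM (median 24.6) in low genotypes. Only 1 low sample, the level of 64.3 CPM in 2165_1, exceeded the median of the high group, and the log2 fold change was 0.91 ± 0.18 (adjusted p = 0.0131). *AMPBP1* (PGSC0003DMG400014638, chromosome 6), of the AMP-binding enzymes that activate organic acids, had medians of 24.2 and 11.9 CPM and a log2 fold change of 1.11 ± 0.25 (adjusted p = 0.0239). The RecA protein gene (PGSC0003DMG400008143, chromosome 10), of a family that pairs DNA strands in repair, was uneven, with a median of 5.2 CPM in high and 4.18 CPM in low genotypes. The 5 highest samples of the high group (2165_4, 2168_3, 2175_5, 2165_2 and 2168_6) stood at 17.6 to 55.6 CPM and 1 low sample (2170_1) at 34.8 CPM, and all others lay at or below 8.29 CPM. Its log2 fold change was 1.42 ± 0.38 (adjusted p = 0.0443), and 1.16 without 2165_4 (adjusted p = 0.0902).

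Of 10 tested genes annotated only as of unknown function, 4 rose and none fell past the threshold. PGSC0003DMG400003322 (chromosome 2) separated the groups best among the listed genes: 12 of the 18 high samples lay above every low sample, on ranges of 7.65 to 15 CPM in high and 3.01 to 10.7 CPM in low genotypes, with a log2 fold change of 0.62 ± 0.12 (adjusted p = 0.0138). PGSC0003DMG400015948 (chromosome 10) had medians of 13 and 6.46 CPM and a log2 fold change of 1.01 ± 0.20 (adjusted p = 0.0138). PGSC0003DMG402030529 (chromosome 5) had medians of 2.37 and 0.43 CPM and a log2 fold change of 1.92 ± 0.43 (adjusted p = 0.0226). PGSC0003DMG400026406 (chromosome 2) had the weakest call, with a log2 fold change of 0.57 ± 0.16 and an adjusted p of 0.0463 that passed in 14 of the 42 fits with 1 sample left out.

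The remaining 272 of the 299 genes have no name in the tables used here. Of these, PGSC0003DMG400024467 had the smallest p of all genes, with 65.7 to 135 CPM (median 98.1) in high and 38.2 to 89.5 CPM (median 62.9) in low genotypes and a log2 fold change of 0.58 ± 0.093 (adjusted p = 0.0024). PGSC0003DMG402007388 rose by 1.79 ± 0.32 on the log2 scale (adjusted p = 0.00426), from a median of 1.48 CPM in low to 3.52 CPM in high genotypes. PGSC0003DMG400005481 was the clearest falling gene, with 2.02 to 6.0 CPM (median 3.73) in high and 3.09 to 10.7 CPM (median 6.19) in low genotypes, and 15 of the 24 low samples lay above every high sample (log2 fold change -0.77 ± 0.13, adjusted p = 0.00341). PGSC0003DMG400017387 fell less, by 0.43 on the log2 scale (SE 0.083, adjusted p = 0.0131), on medians of 39.6 and 53.5 CPM.

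**Figure D3:**
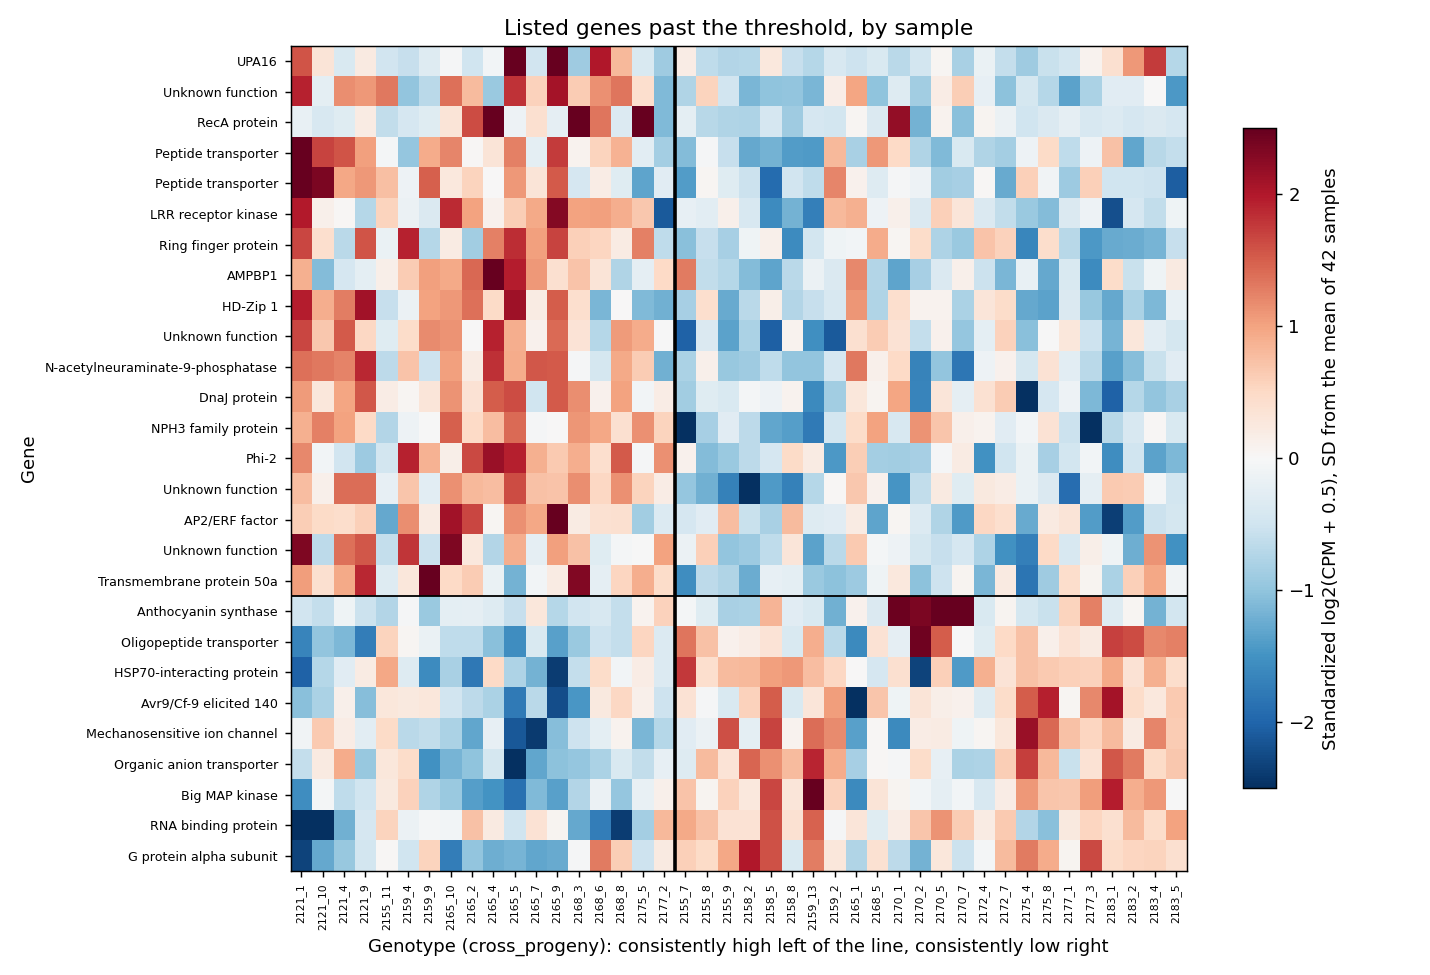
Level of the 27 listed genes past the threshold (rows, 18 higher above the line and 9 lower below it) in the 42 samples (columns, sorted by cross within each group), as log2(CPM + 0.5) in standard deviations from the gene's mean. Columns of crosses 2121 and 2165 carry many of the deepest colours, the low sample 2165_1 has the colour of the high group in several rows, and anthocyanin synthase is raised in the 4 consistently low samples of cross 2170.

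The position of family in these differences was measured in several ways. For the 18 listed genes that rose, the highest sample was one of cross 2165 in 13 genes, and the low sample nearest the high group was 2165_1 in 6. For the 9 that fell, the low sample nearest the high group was 2165_1 in 4. Cross 2165 holds 6 of the 18 high samples and 1 of the 24 low samples. The same tally over all genes was not made, so these counts have no background to be read against. With cross as a term in the edgeR fit, no gene passed the threshold (0), 1117 genes reached an unadjusted p under 0.05, and the smallest adjusted p was 0.473; DESeq2 and limma-voom were not run with this term. The fit restricted to the 6 crosses with both kinds of genotype gave the same picture (0 genes, 1032 at an unadjusted p under 0.05). Within families the fold changes shrank: the median ratio of the within-family to the pooled log2 fold change was 0.545 over the 299 genes. Of these genes, 296 kept their sign, and 110 had an unadjusted p under 0.05. Over all 18744 genes the median ratio was 0.397, and 12255 kept their sign. The values of the 299 genes come from the samples that chose them. These values compare the fit with cross to the fit without it, rest on the 6 crosses with both kinds of genotype, and test nothing further.

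The fitted values with cross as a term differed between genes, and these differences between genes were not tested. Phi-2 (PGSC0003DMG400025889) had a log2 fold change of 0.56 ± 0.16 (SE, unadjusted p = 0.00118) with the term. It was higher in the consistently high genotypes of all 6 shared crosses, by 0.088 in cross 2155 up to 0.99 in cross 2159 on the log2 scale. The DnaJ gene (PGSC0003DMG400028488) was also higher in all 6, by 0.47 to 1.15, with a within-family log2 fold change of 0.78 ± 0.26. The mechanosensitive ion channel gene (PGSC0003DMG400009888) had -0.49 ± 0.17 with the term against -0.50 without it, and was lower in 4 of the 6 crosses. Transmembrane protein 50a (PGSC0003DMG400027793) had 0.41 ± 0.11 with the term against 0.33 without it. Unlisted gene PGSC0003DMG400005481 had -0.77 in both fits (SE 0.19 with the term).

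Other genes had fitted values nearer 0 with the term. The oligopeptide transporter gene (PGSC0003DMG400013297) went from -0.81 to -0.16 ± 0.17 (SE) with cross as a term, and N-acetylneuraminate-9-phosphatase (PGSC0003DMG400029856) from 0.91 to 0.12 ± 0.20. Homeodomain leucine-zipper 1 (PGSC0003DMG400021423) went from 1.06 to 0.24 ± 0.25, and the peptide transporter gene PGSC0003DMG400006606 from 1.38 to 0.12 ± 0.45. Of the 27 listed genes, 12 had an unadjusted p under 0.05 with the term (44.4%, against 5.96% of all genes). The direction was the same in all 6 shared crosses for 5 of the 27 (18.5%, against 2.99% of all genes), in 5 crosses for 8, in 4 for 11 and in 3 for 3. The 27 genes were chosen by their difference in these same samples. Shares above those of all genes were thus favoured in advance and test nothing further.

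Anthocyanin synthase (PGSC0003DMG400022746, chromosome 8), which forms the coloured anthocyanidins, was the only tested gene of the 2 phenylpropanoid genes on the list. It had a log2 fold change of -1.70 ± 0.46 (adjusted p = 0.0448). High genotypes had 0.432 to 2.4 CPM (median 0.846). The 4 consistently low genotypes of cross 2170 had 10.4, 11.3, 12.5 and 20.1 CPM, whereas the other consistently low genotypes had 0.265 to 4.32 CPM, and the median of the low group was 0.995 CPM. Without cross 2170 the log2 fold change was -0.32 (adjusted p = 0.54), and with cross as a term it was -0.057. The high level was not shared by the whole cross: the other 3 low-labelled genotypes of cross 2170, whose second replicate fell outside the limit, had 1.11 to 1.22 CPM in libraries scaled together with those of the consistent genotypes.

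The second phenylpropanoid gene, caffeic acid O-methyltransferase II (PGSC0003DMG400013342, chromosome 11), an enzyme of lignin synthesis, was below the low-count filter. It had 0 to 1.68 CPM (median 0.186, 5 samples at 0) in high and 0 to 36.2 CPM (median 0.122, 7 samples at 0) in low genotypes. The high values of the low group were 36.2 CPM in 2175_8, 16.5 CPM in 2183_4 and 10.7 CPM in 2183_5. Without the filter its log2 fold change was -2.90 with an adjusted p of 0.0805, while the medians lay in the opposite order. Of the genes the study called, 8 were below the filter, with group medians of at most 0.701 CPM, and 6 of them passed the threshold when no filter was used, 2 higher and 4 lower. Over all genes, 422 of 25163 (1.68%) passed without the filter. The study drew its list from samples that include these, so the 6 genes are not independent evidence.

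Candidate genes for bruising known from earlier work formed a second list of 40 genes, of which 35 were in the count table and 31 were tested. None passed in edgeR (against 1.6% of all genes), 4 had an unadjusted p under 0.05 (12.9%, against 19.5% of all genes), and DESeq2 passed none. Their median log2 fold change was 0.17, against 0.0025 over all genes tested. The smallest adjusted p was that of *AGPB1* (PGSC0003DMG400031084), a glucose-1-phosphate adenylyltransferase of starch synthesis, with 432 to 1149 CPM (median 749) in high and 317 to 804 CPM (median 611) in low genotypes. Its log2 fold change was 0.33 ± 0.11 (adjusted p = 0.0947), and it was higher in the high genotypes of all 6 shared crosses. With cross as a term in edgeR its log2 fold change was 0.36 ± 0.14 (unadjusted p = 0.0122, adjusted p = 0.758).

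The polyphenol oxidases, which oxidise phenols in the first step of melanin formation, numbered 6 of the 9 on the candidate list in the count table, and none of the 5 tested passed. *POT32* (PGSC0003DMG400018916) had 1.11 to 70.7 CPM (median 8.23) in high and 0.366 to 84.1 CPM (median 3.47) in low genotypes. The highest value of all belonged to a low genotype, 2159_2, and the log2 fold change was 1.08 ± 0.52 (adjusted p = 0.242). Without 2159_2 it was 1.83 and passed (adjusted p = 0.0309), as it did without cross 2159 (1.66, adjusted p = 0.0382), whereas without cross 2165 it was 0.80 (adjusted p = 0.625) and with cross as a term 0.29 (adjusted p = 0.984). Catechol oxidase B, *COB* (PGSC0003DMG400029575), had medians of 9.12 CPM in high and 18.1 CPM in low genotypes, with ranges of 2.06 to 87.4 and 1.54 to 85.2 CPM and a log2 fold change of -0.32 ± 0.41 (adjusted p = 0.717).

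The polyphenol oxidase gene PGSC0003DMG400029576 changed sign with cross as a term. It ran from 0 to 69.3 CPM (median 5.23) in high and from 0.187 to 83.3 CPM (median 3.93) in low genotypes, so that the medians pointed one way and the fitted log2 fold change of -0.44 ± 0.72 (adjusted p = 0.79) the other. The 4 highest low samples, at 66.2 to 83.3 CPM, were the 4 genotypes of cross 2183. Without that cross the log2 fold change was 1.06 (adjusted p = 0.489), and with cross as a term it was 2.96 ± 1.19 (unadjusted p = 0.0177, adjusted p = 0.774). It was higher in the high genotypes of 5 of the 6 shared crosses. The polyphenol oxidase A gene PGSC0003DMG400018917, at medians of 0.596 and 0.199 CPM, was higher in all 6 shared crosses and had a log2 fold change of 0.49 ± 0.58 (adjusted p = 0.69). With cross as a term in edgeR its log2 fold change was 1.83 ± 0.82 (unadjusted p = 0.0331, adjusted p = 0.807). PGSC0003DMG400018914 had medians of 0.479 and 0.971 CPM (log2 fold change -0.49, adjusted p = 0.638), and PGSC0003DMG400018925 had 21 reads over all 42 samples and was below the filter.

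**Figure D4:**
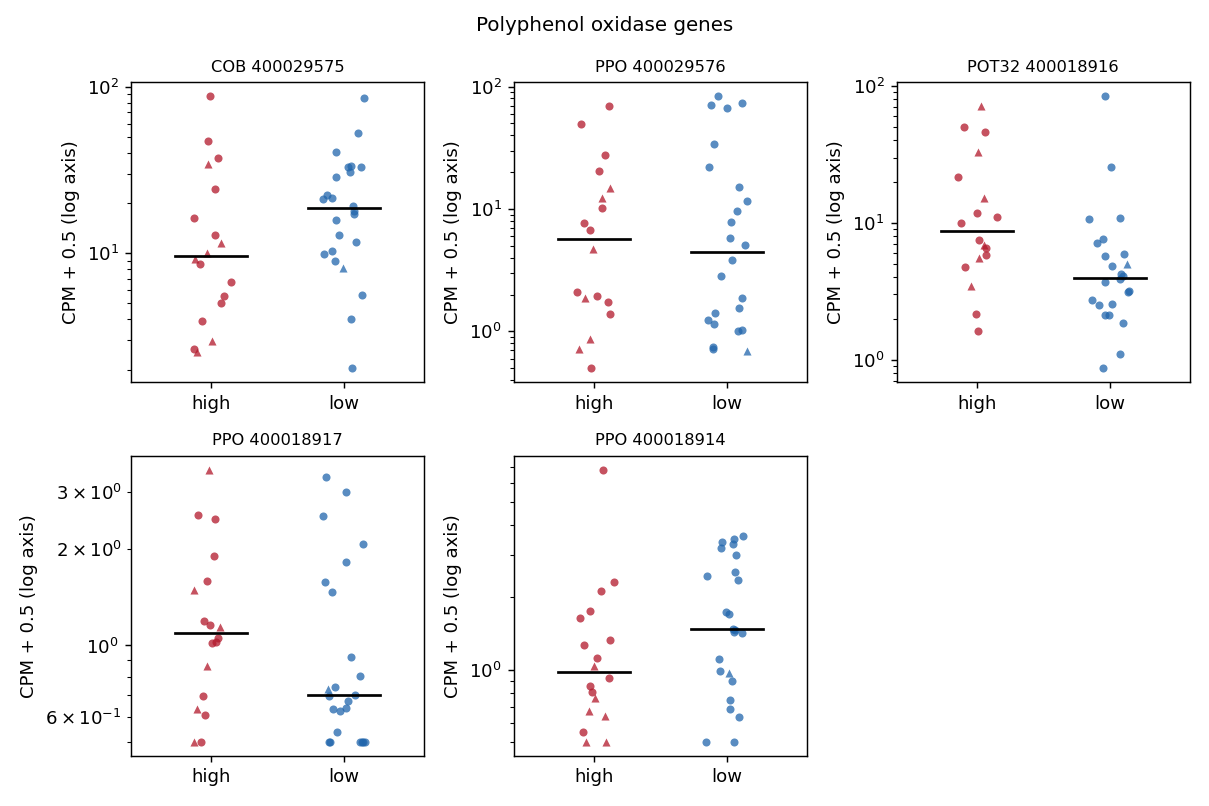
Level of the 5 tested polyphenol oxidase genes in the 18 consistently high (red) and 24 consistently low (blue) samples, as CPM + 0.5 on a log axis, with triangles for cross 2165 and a bar at the group median. Both groups span more than 10-fold in COB, POT32 and the PPO gene in the upper middle panel and overlap along nearly the whole range, and no gene passed the threshold.

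No other candidate passed. The 8 candidate protease inhibitor genes tested had log2 fold changes from -1.22 to 0.43, the 8 patatin, lipase and lipoxygenase genes from -0.33 to 1.18, and the 4 genes of phenylpropanoid synthesis and peroxidase from -0.41 to 0.17. Lipoxygenase *LOX1-ST-2* (PGSC0003DMG400020999), which oxidises fatty acids on the way to jasmonate and related compounds, had medians of 657 CPM in high and 281 CPM in low genotypes within ranges of 61.5 to 1747 and 59.7 to 1767 CPM, and a log2 fold change of 0.73 ± 0.38 (adjusted p = 0.279). 4-coumarate CoA ligase *4CL* (PGSC0003DMG400003155), an early enzyme on the way to lignin and other phenylpropanoids, had medians of 50.7 and 70.9 CPM and a log2 fold change of -0.41 ± 0.21 (adjusted p = 0.281). A protease inhibitor gene on the list the study called (PGSC0003DMG400010136) had a log2 fold change of -1.74 ± 0.64 (adjusted p = 0.123). The other one, an aspartic protease inhibitor gene (PGSC0003DMG400010129), was below the filter, with 11 of 18 high and 12 of 24 low samples at 0. In 4 low samples it exceeded every high sample, the highest at 129 CPM, and it passed without the filter (log2 fold change -5.97, adjusted p = 0.0215). Patatin and protease inhibitor genes have near-identical copies, and reads shared between copies can be lost in counting, so their levels are uncertain. The candidate polyphenol oxidase genes lie close together on chromosome 8, and whether reads were lost between them was not tested.

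The same contrast was measured in the samples that the limits did not use, 15 labelled high and 16 labelled low whose second replicate fell outside them. No gene passed there in edgeR (712 genes, or 3.8%, had an unadjusted p under 0.05) or in limma-voom (743 at an unadjusted p under 0.05). Of the 299 genes, 190 (63.5%) had the same direction in these samples, against 54.3% of all 18744 genes. In the edgeR fit, 4 of the 299 reached an unadjusted p under 0.05 in the same direction and 6 did so in the opposite one. Over all 18744 genes these counts were 397 and 315. The median ratio of the fold change there to that in consistent genotypes was 0.089 for the 299 genes, near the 0.088 of all genes.

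Among the 27 listed genes, which the study had drawn from both sets of samples together, 25 had the same direction in the other genotypes. The log2 fold change of N-acetylneuraminate-9-phosphatase (PGSC0003DMG400029856) was 0.56 there (p = 0.0147 before adjustment) and that of the RNA binding protein gene (PGSC0003DMG400027944) was -0.28 (p = 0.017 before adjustment). Phi-2 (PGSC0003DMG400025889) had 60.3 ± 21.1 CPM (SD, n = 15) in other high and 51.9 ± 13.3 CPM (SD, n = 16) in other low genotypes, where its log2 fold change was 0.22 (unadjusted p = 0.132). Its difference from the change in consistent genotypes was 0.45 (unadjusted p = 0.0176, adjusted p = 0.507). *UPA16* (PGSC0003DMG400033693) and anthocyanin synthase (PGSC0003DMG400022746) were the 2 listed genes with the opposite sign, at -1.32 (p = 0.151 before adjustment) and 1.11 (p = 0.0249 before adjustment). PGSC0003DMG400024467, first by p in consistent genotypes, had 79.7 ± 27.1 and 80.8 ± 24.5 CPM (SD) in the other high and low genotypes, a log2 fold change of -0.02.

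**Figure D5:**
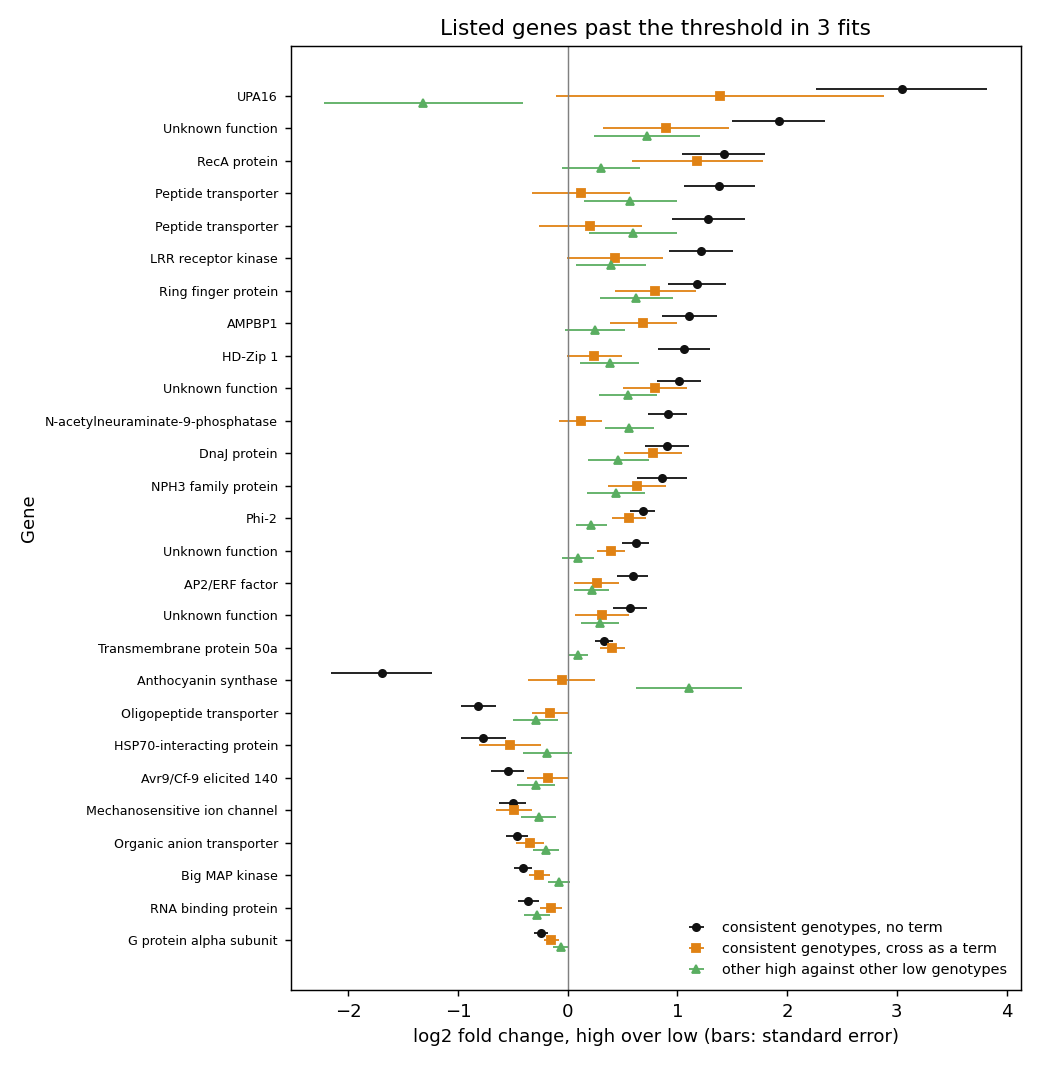
Log2 fold change (high over low bruising, bars are standard errors) of the 27 listed genes past the threshold, for consistent genotypes (black), the same with cross as a term (orange) and other high against other low genotypes (green). Orange and green points lie mostly between 0 and the black point, and the oligopeptide transporter, the peptide transporters and anthocyanin synthase lie near 0 with cross as a term.

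The difference between the contrast in consistent genotypes and that in the other genotypes was tested gene by gene in a 4-group fit. One gene of 18744 (0.00534%) passed, and 1570 (8.38%) had an unadjusted p under 0.05. Polyphenol oxidase *POT32* (PGSC0003DMG400018916) had a difference of 1.58 (unadjusted p = 0.0436, adjusted p = 0.577), and lipoxygenase *LOX1-ST-2* (PGSC0003DMG400020999), at -1.10 in the other genotypes, a difference of 1.82. This difference did not pass after adjustment either.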

How the data were processed

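RNA of bruised tubers was sequenced from 100 genotypes, 1 library each. The authors removed ribosomal reads, trimmed adapters and aligned the reads to the PGSC-DM potato genome with STAR (version 2.6.1 per the submitters' processing notes), and deposited whole-number counts per gene without normalisation, after a filter on low counts. Which strand setting was used is not given in the sources used here. The table holds 25163 genes.

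Here, genotypes were grouped by the summed bruising scores of both replicates. Genes were kept by filterByExpr (minimum count 10), which left 18744, and compared with edgeR 4.0.16 in R 4.3.3 (TMM, quasi-likelihood F test, robust) without covariates. P-values were adjusted over all genes tested by the Benjamini-Hochberg method, with a threshold of 0.05. CPM values use TMM-scaled library sizes. The other high and low genotypes were tested in a 4-group fit of the same kind, with the difference of the contrasts as its interaction. Standard errors are the absolute log2 fold change divided by the square root of F. Within-cross differences are of mean log2(CPM + 0.5). Library totals were compared with 100000 permutations. Group sizes, the spread between genotypes and the total counts limit the precision, and a gene near 1 CPM rests on few reads in the smallest library.

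Alternatives were no filter, RLE size factors, DESeq2 1.42.0, limma-voom (limma 3.58.1), robust estimation off, cross as a term, the replicate number as a block, log2 total count as a term, removal of the 50 most abundant genes, each sample and each cross left out, stricter sums (7 or more against 2 or less in both), all labelled samples, all 100 samples in the fit and a threshold of 0.01. The tests were tested on simulated counts with the same dispersion for every gene and no family effect. That check therefore does not cover family differences or the influence of single samples.

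The members and gene lists were chosen with earlier results of these data known. Gene names and chromosomes come from the candidate table and the table of called genes of the study, and 0 of 25163 identifiers matched the reference table. Named genes are the listed genes past the threshold (at most 30), all polyphenol oxidase genes, 5 genes that the study's text names, and, of genes without a name and with a mean of at least 1 CPM, the 2 higher and 2 lower with the smallest p. *AGPB1*, *LOX1-ST-2*, *4CL* and genes that missed the threshold were named after their values were seen. Of the 40 candidate genes, 5 were not analysed here. Of the authors' own test results, only the list of called genes was used, and none of its fold changes or p-values.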

Additional observations from a re-analysis of the deposited data

Results flagged for a closer look

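One gene differed past the threshold between consistent and other genotypes, with contrasts of opposite sign. PGSC0003DMG400029773, which has no name in the tables used here and was singled out after its values were seen, had a log2 fold change of -0.86 in consistent genotypes (adjusted p = 0.035) and of 0.86 in the other genotypes (unadjusted p = 0.00114), a difference of -1.74 (adjusted p = 0.0411 by edgeR's interaction contrast). Consistently high genotypes had 3.3 to 26.4 CPM (median 14.2) and consistently low genotypes 9.34 to 69.6 CPM (median 22.1), with 11 low samples above every high sample. In the other genotypes the mean was 27 ± 13.5 CPM (SD, n = 15) in high and 14.9 ± 7.88 CPM (SD, n = 16) in low samples. The 4 low genotypes of cross 2183 lay between 34.8 and 69.6 CPM, and without that cross the log2 fold change in consistent genotypes was -0.63 (adjusted p = 0.154). Cross was added as a term to 2 separate edgeR fits. The fit of the consistent genotypes alone then put PGSC0003DMG400029773 at -0.71 on the log2 scale (unadjusted p = 0.0104). In the 4-group fit, its value for the other genotypes was 0.99 (unadjusted p = 6.74e-05). No gene passed the interaction test of that 4-group fit with cross.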

How the results depend on the processing

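The count of 299 genes between consistently high and low genotypes depended on the test, the family term and single samples. DESeq2 gave 928 genes and limma-voom 148. Cross as a term gave 0, as did the 6 shared crosses alone (0), and log2 total count as a term gave 60. Stricter sums (12 high against 13 low) gave 787, all labelled samples (33 against 41) gave 3, all 100 samples in the fit gave 599, and a threshold of 0.01 gave 5. Without cross 2121 the count was 34, without 2155 it was 524, without 2158 it was 43, without 2159 it was 675, without 2165 it was 0, without 2170 it was 624, without 2172 it was 508, without 2175 it was 127 and without 2183 it was 14. The replicate block (254 genes), no filter (422), RLE size factors (330) and the other alternatives stayed within 1.5 times of 299. Replicate numbers mark different genotypes here and pair no samples.

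Leaving out 1 sample gave 60 to 979 genes, with a shift of over 1.5 times for 27 of 42 samples. Among high genotypes the count fell to 60 without 2165_5, 91 without 2121_1, 101 without 2165_2 or 2165_9, 104 without 2165_10, 118 without 2121_9, 122 without 2168_3, 135 without 2165_4 and 190 without 2168_8. It rose to 473 without 2168_6, 488 without 2175_5, 514 without 2177_2, 684 without 2155_11 and 979 without 2159_9. Among low genotypes it fell to 119 without 2183_1, 122 without 2159_13, 139 without 2183_2, 144 without 2183_5, 163 without 2175_4, 167 without 2183_4, 177 without 2177_3, 179 without 2158_5, 183 without 2158_2 and 185 without 2158_8. It rose to 519 without 2168_5, 563 without 2170_1 and 902 without 2165_1. Of the 299 genes, 54 passed in all 42 such fits, 9 of them listed. The cause was not tested.

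No log2 fold change of a named gene that passed changed sign under any alternative run. Of the 32 named genes that passed, 32 no longer did so with cross as a term, 29 with all labelled samples, 18 with log2 total count, 14 with limma-voom, 8 with stricter sums, 2 with the replicate block and 1 with DESeq2. *POT32* passed in 2 fits, without 2159_2 and without cross 2159. Other high against other low genotypes gave 0 genes under all 5 alternatives run. The single gene of the interaction became 35 without a filter and 0 with limma-voom or with cross as a term, and stayed 1 with RLE size factors and with the replicate block. The log2 total count differed between groups by -0.22 in means and -0.085 in medians.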
